A study of Mus musculus with 14 samples.

Results

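The genes described here are the heat shock chaperones of the cytosol and the mitochondrion together with the factors that regulate them or work beside them, measured in mouse liver after deletion of AMPK. Members were taken by gene symbol: the numbered J proteins (Dnaja, Dnajb and Dnajc), the HSP70 genes (Hspa), the small heat shock proteins (Hspb), Hsp90aa1, and Hsph1, Hspd1, Hspe1, Hsf2, Bag1, Bag3, Chordc1, Ahsa1 and Stip1. Of 73 measured genes that matched, 7 chaperones of the endoplasmic reticulum (Hspa5, Hspa13, Dnajb9, Dnajb11, Dnajc1, Dnajc3 and Dnajc10) were left out, which left 66 members of 19505 genes, each with 1 row on the array. Hsp90ab1, Hspa8, Hsf1, Dnaja1 and Dnajb5 also match but were not analysed here. The name of the group is not exact for every member, since J proteins of the endoplasmic reticulum membrane such as Dnajb12 and Dnajb14 stay in by their symbols. Hspb11, an intraflagellar transport gene, is likewise counted with the small heat shock proteins by its symbol. By role the members were 1 heat shock factor, 4 genes of the HSP90 system, 10 of the HSP70 and HSP110 families, 2 BAG exchange factors, 10 mitochondrial chaperones and J proteins, 8 small heat shock proteins, and 2, 10 and 19 other J proteins of classes A, B and C.

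Chaperones bind unfolded stretches of other proteins and let them fold, move across membranes or be degraded. J proteins deliver clients to HSP70 and start its ATPase, exchange factors such as the BAG proteins and HSP110 release the nucleotide, HSP90 takes over partly folded clients such as kinases and nuclear receptors, and small heat shock proteins hold aggregating proteins without ATP. Most stress-inducible members are transcribed by heat shock factors, which bind repeats of the letters GAA and TTC in their promoters, and the liver, with its heavy protein synthesis and secretion, carries high levels of many of them.

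All animals were male C57BL/6 mice homozygous for floxed Prkaa1 and Prkaa2, the genes of the AMPK catalytic subunits alpha1 and alpha2, so the controls carried the floxed alleles too. They were put on a high-fat diet at 6 weeks of age for 4 weeks and received an AAV8 vector through the jugular vein at 10 weeks, either empty (6 control samples) or carrying Cre (8 knockout samples), with the hepatocyte-directed TBG promoter. Both groups then had metformin at 50 mg/kg/day for 3 weeks and were fasted for 16 h before the liver was taken, so there was no group without metformin or without the high-fat diet. The labels give the age as 4 months, and they do not say that each sample came from its own mouse, so the p-values measure the spread between samples, which may be technical. Because the vector acts in hepatocytes, the other cells of the liver kept their AMPK genes, and in a bulk sample fewer cells of a type and less RNA per cell cannot be told apart.

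Each value is a log2 expression level of a gene in a sample, and each difference is knockout minus control on that scale with its standard error (SE). By their correlations the 14 arrays made up 2 sets, which have no name in the labels: set 1 with controls 1 to 3 and knockouts 1 to 4, set 2 with controls 4 to 6 and knockouts 5 to 8. Correlations over all rows were 0.988 to 0.994 within a set and 0.951 to 0.963 across sets. The set was therefore a term in the limma fit, and "rose" and "fell" are used below only for a Benjamini-Hochberg adjusted p under 0.05 over all 19505 genes in that fit. Prkaa2 fell by 1.13 ± 0.08 to 0.458 of its control level (limma, adjusted p = 1.92e-06) and Prkaa1 fell by 0.67 ± 0.13 (limma, adjusted p = 0.0302), with all 8 knockout samples below every control of their set for both. The Prkaa1 call did not hold without any 1 of controls 1, 2, 4, 5 and 6 and knockouts 2, 4 and 5, where its adjusted p reached 0.0770. The mean of 8 hepatocyte markers was 12.46 to 12.53 in set 1 controls against 12.50 to 12.56 in set 1 knockouts, and 12.89 to 12.97 against 12.96 to 13.01 in set 2, so the liver label held. No gene of the 8 marker lists for liver, blood and muscle cells was called. The 5 measured lymphocyte markers had means of 4.76 to 4.90 in set 2 controls and 4.98 to 5.23 in set 2 knockouts, without overlap, and overlapped in set 1 (5.00 to 5.27 against 5.07 to 5.35). Alas2, the erythroid marker measured, was 9.37 to 9.44 in set 2 controls and 9.04 to 9.23 in set 2 knockouts, also without overlap, and overlapped in set 1. Of 10 immediate early genes, which respond fast to tissue handling, 7 were lower in knockout. At an unadjusted p under 0.05 in limma 4 of them were lower, where 4.83% of all genes were, and 0 after adjustment. The part of these markers in the chaperone values was not tested.

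The promoters that carry the classical heat shock element are shown first, since that element is the one heat shock factors are known to bind. It was searched as 3 alternating units GAA and TTC with any 2 bases between units, on both strands, in windows from 250 bases before to 50 bases after each RefSeq gene start (build GRCm38.p6). Of the 66 members, 55 had at least 1 window, and 5 of those 55 genes (9.09%) held the element: Chordc1, Hsph1, Dnajb6, Hspd1 and Hspe1. Among all measured genes with a window it was present in 96 of 15691 (0.612%), and among all 32851 windows in 198 (0.603%). The shorter form of 2 units, GAANNTTC or TTCNNGAA, which every full element contains, was in 16 of the 55 members (29.1%) and in 15.4% of measured genes. Hsp90aa1 was among the 11 members without a window. The 4 windows below run to 29 bases past the start, with the element in capitals; Hsph1 and Dnajb6 each have another start with a window that holds the same element.
Chordc1, chr9:18292017-18292296, plus strand: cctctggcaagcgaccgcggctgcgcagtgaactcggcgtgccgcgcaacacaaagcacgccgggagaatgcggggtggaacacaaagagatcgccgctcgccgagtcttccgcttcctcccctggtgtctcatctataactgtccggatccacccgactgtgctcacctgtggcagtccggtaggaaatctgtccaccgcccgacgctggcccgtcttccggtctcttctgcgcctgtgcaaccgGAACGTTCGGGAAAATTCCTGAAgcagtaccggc
Hsph1, chr5:149636286-149636565, minus strand: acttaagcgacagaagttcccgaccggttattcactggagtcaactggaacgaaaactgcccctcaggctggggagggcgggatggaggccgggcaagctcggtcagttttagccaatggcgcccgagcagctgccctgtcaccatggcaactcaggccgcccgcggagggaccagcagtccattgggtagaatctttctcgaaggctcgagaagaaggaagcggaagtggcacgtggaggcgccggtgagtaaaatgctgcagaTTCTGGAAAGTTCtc
Dnajb6, chr5:29735648-29735927, plus strand: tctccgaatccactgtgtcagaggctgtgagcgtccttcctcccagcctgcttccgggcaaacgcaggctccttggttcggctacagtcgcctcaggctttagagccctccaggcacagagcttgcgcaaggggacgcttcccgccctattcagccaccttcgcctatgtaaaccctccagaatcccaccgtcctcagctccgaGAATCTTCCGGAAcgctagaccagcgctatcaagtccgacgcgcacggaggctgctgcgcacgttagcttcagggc
Hspe1, chr1:55087898-55088177, plus strand: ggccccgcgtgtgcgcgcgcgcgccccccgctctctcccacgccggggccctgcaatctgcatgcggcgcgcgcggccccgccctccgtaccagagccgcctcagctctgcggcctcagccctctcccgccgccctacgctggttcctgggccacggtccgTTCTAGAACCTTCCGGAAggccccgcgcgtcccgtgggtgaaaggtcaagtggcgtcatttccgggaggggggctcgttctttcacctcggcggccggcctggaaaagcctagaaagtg
In Chordc1 the element formed a run of 23 bases in which 3 matches overlapped, starting 4 bases before the gene start, which lies inside it. In Hsph1 it was 13 bases long and began 15 bases after the start, and in Dnajb6 it was 13 bases long and began at -46. Hspe1 and Hspd1 face away from each other on chromosome 1 and share a single stretch of 18 bases, at -89 from the Hspe1 start and -144 from 1 of the 2 Hspd1 starts in the table; the window of the other Hspd1 start held no element. A match of these letters is a description and does not show that a factor binds there. Only exact matches inside the windows were counted, so a gene without a match is not shown to lack an element. That holds for the inducible Hspa1a, Hspa1b, Dnajb1, Bag3 and Hspb1, whose windows held no full match.

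**Figure D1:**
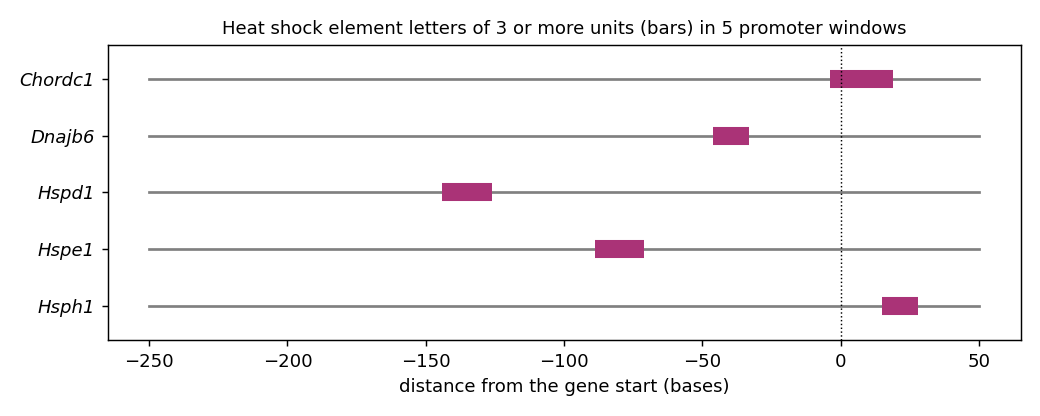
Position of the full heat shock element (bars on a line for each window, bases from the gene start on the horizontal axis) in the promoter windows of the 5 chaperone genes that hold it. It lies at the start in Chordc1, after it in Hsph1, and upstream in Dnajb6, Hspe1 and Hspd1.

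More of the chaperones were higher than lower in the knockout livers, and only 2 single members were called. The group counts and medians describe members chosen with earlier results of these data known, and the group was not tested. Members can vary together, so they are not independent samples. The median level of the members was 7.39 to 7.53 in set 1 controls and 7.49 to 7.70 in set 1 knockouts. In set 2 it was 7.44 to 7.53 against 7.48 to 7.59, so the groups overlapped in both sets. Hsf2 and Hsp90aa1 rose, which is 3.03% of the members, where 0.431% of all genes were called higher. No member fell, where 0.272% of all genes were called lower; at an unadjusted p under 0.05 in limma 1 member (Dnajc28, 1.52%) was lower, against 4.83% of all genes. At that unadjusted threshold 12 members (18.2%) were higher, against 5.53% of all genes: Hsf2, Hsp90aa1, Chordc1, Dnajc16, Dnajc11, Hsph1, Hspb1, Dnaja2, Dnajb6, Hspa1b, Dnajb4 and Hspa4. Among genes with a mean level of at least 5, 22.2% of members and 7.17% of all genes were higher there, and 1.85% and 5.51% lower. The difference was above 0 for 51 members and below 0 for 15, and its median was 0.08, where 9860 of all genes were above 0 and 9645 below it with a median of 0.0016.

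The SE of a member's difference ran from 0.063 to 0.172 with a median of 0.095, and for 58 of the 66 members the 95% interval lay within 0.5 of 0 on either side. The median difference of the members was 0.10 in set 1 and 0.07 in set 2, and 33 members were higher in knockout in both sets and 8 lower in both (62.1% of the same sign), where 5568 and 5215 of all genes were (55.3%). In single knockout samples, 38 to 49 of the 66 members (57.6% to 74.2%) were above the mean of their set's controls, against 49.8% to 52.2% of all genes. In single controls 26 to 38 members (39.4% to 57.6%) were above the mean of the other controls of their set, against 48.5% to 51.2% of all genes. The 2 ranges meet at 38, and the mean set against a control rests on fewer samples. No difference was called as differing between the sets for any member or any other gene (limma interaction), so that count does not set the members apart. At an unadjusted p under 0.05 it was 0 of 66 members, with 4.83% of all genes at that unadjusted threshold. Without the set term the median SE was 0.160 and neither any member nor any other gene was called by limma, with 4 members higher (6.06%) and 0 lower at an unadjusted p under 0.05, where 1.74% of all genes were higher and 1.61% lower.

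**Figure D2:**
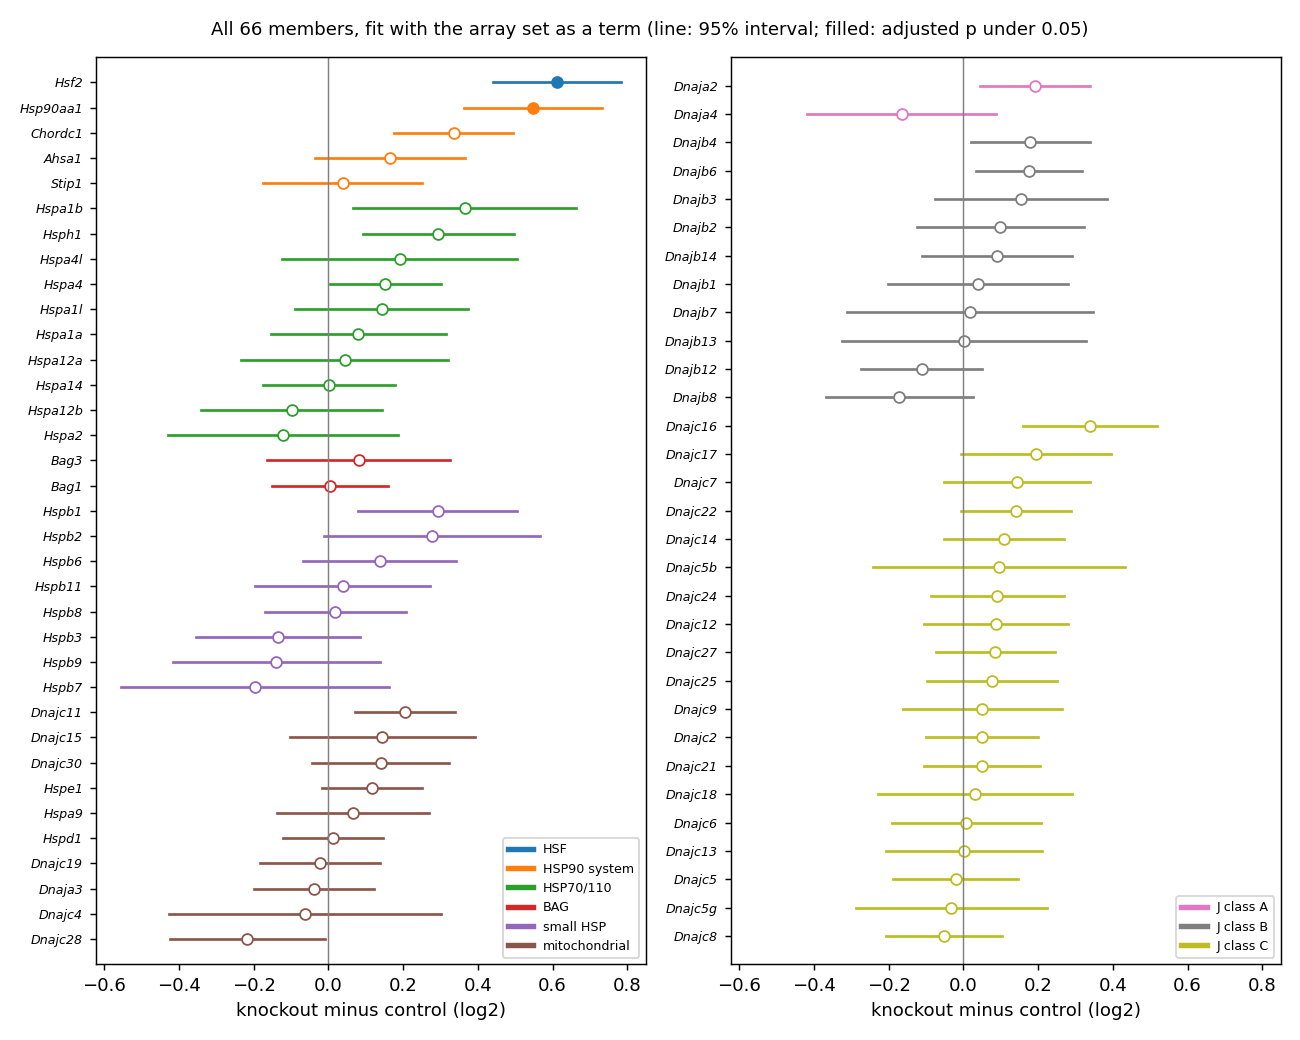
Knockout minus control difference on the log2 scale (horizontal axis) of the 66 members, grouped by role, with 95% intervals from the fit with the array set as a term. Filled points mark Hsf2 and Hsp90aa1, the members past the adjusted threshold, and most others lie between 0 and 0.3.

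Hsf2, a heat shock factor that works with HSF1 and is also active in unstressed cells, had the largest difference of the members. In set 1 its log2 level was 7.37, 7.21 and 7.25 in the controls and 7.89, 7.87, 8.03 and 7.76 in the knockouts. In set 2 it was 7.91, 7.49 and 7.87 in the controls and 8.39, 8.40, 8.48 and 8.21 in the knockouts. Every knockout sample was above every control of its set, but controls 4 and 6 were at the level of the set 1 knockouts. Hsf2 rose by 0.61 ± 0.08 (95% interval 0.44 to 0.78), that is 1.53-fold (limma, adjusted p = 0.00427, 6 controls and 8 knockouts). The difference was 0.61 in each set, and the adjusted p stayed at or below 0.0143 on leaving out any single sample. Hsf2 was not called without the set term (limma, adjusted p = 0.544, unadjusted p = 0.0012) or in either set alone (0.166 in set 1 and 0.470 in set 2). Neither fit with a replicate block called it. It was called in 23 of the 28 alternatives run, a count that includes the 14 fits without a single sample.

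Of the HSP90 system all 4 members were higher in knockout, with a median difference of 0.25, and Hsp90aa1, the stress-inducible HSP90 of the cytosol, rose. Its log2 level in set 1 was 9.64, 10.02 and 9.63 in the controls and 10.18, 10.32, 10.43 and 10.30 in the knockouts. Its set 2 levels were 9.00, 9.37 and 8.97 in the controls and 9.51, 9.68, 9.73 and 9.73 in the knockouts. The groups did not overlap within either set, although all set 2 knockouts were near the lower set 1 controls. The difference was 0.55 ± 0.09 (95% interval 0.36 to 0.73), that is 1.46-fold (limma, adjusted p = 0.0111), and was 0.55 in each set. Because the groups do not overlap in either set, an exact two-sided permutation of the labels within the sets could give only its smallest p, 0.000816 over 1225 splits, which is not adjusted for the other members and adds nothing to those values. The limma call held on leaving out any single sample (adjusted p up to 0.0379). With knockouts 5 and 7 averaged and 6 and 8 averaged, because of their repeated numbers, Hsp90aa1 and Hsf2 were both still called. The Hsp90aa1 call held in 21 of the 28 alternatives run, a count that includes those 14 fits without a single sample. It was lost without controls 1 and 4 together (0.0675), without knockouts 7 and 8 (0.0756), in set 1 alone (0.318), in set 2 alone (0.529), without the set term (1.0) and in both fits with a replicate block.

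Chordc1, a zinc-binding co-chaperone of HSP90 whose promoter holds the longest element above, was just outside the threshold. It was 8.38, 8.59 and 8.43 in set 1 controls against 8.73, 8.78, 8.89 and 8.77 in knockouts, and 7.78, 7.86 and 7.99 in set 2 controls against 8.05, 8.37, 8.38 and 8.09 in knockouts. All 8 knockout samples were above every control of their set, though knockout 5 and knockout 8 were close to control 6. The difference was 0.33 ± 0.08 (95% interval 0.17 to 0.49; limma, adjusted p = 0.0541), and it passed when only genes with a mean level of at least 5 were tested (0.0251), with a trended robust prior (0.0140) and without knockout 5 (0.0485), 3 of the 28 alternatives run; in the others its adjusted p was up to 1.0. Ahsa1, which starts the ATPase of HSP90, differed by 0.16 ± 0.09 (limma, adjusted p = 0.597). Stip1, which joins HSP70 to HSP90, differed by 0.04 ± 0.10 (limma, adjusted p = 0.948), and control 1 and control 5 were its lowest and highest samples at 8.61 and 9.66.

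**Figure D3:**
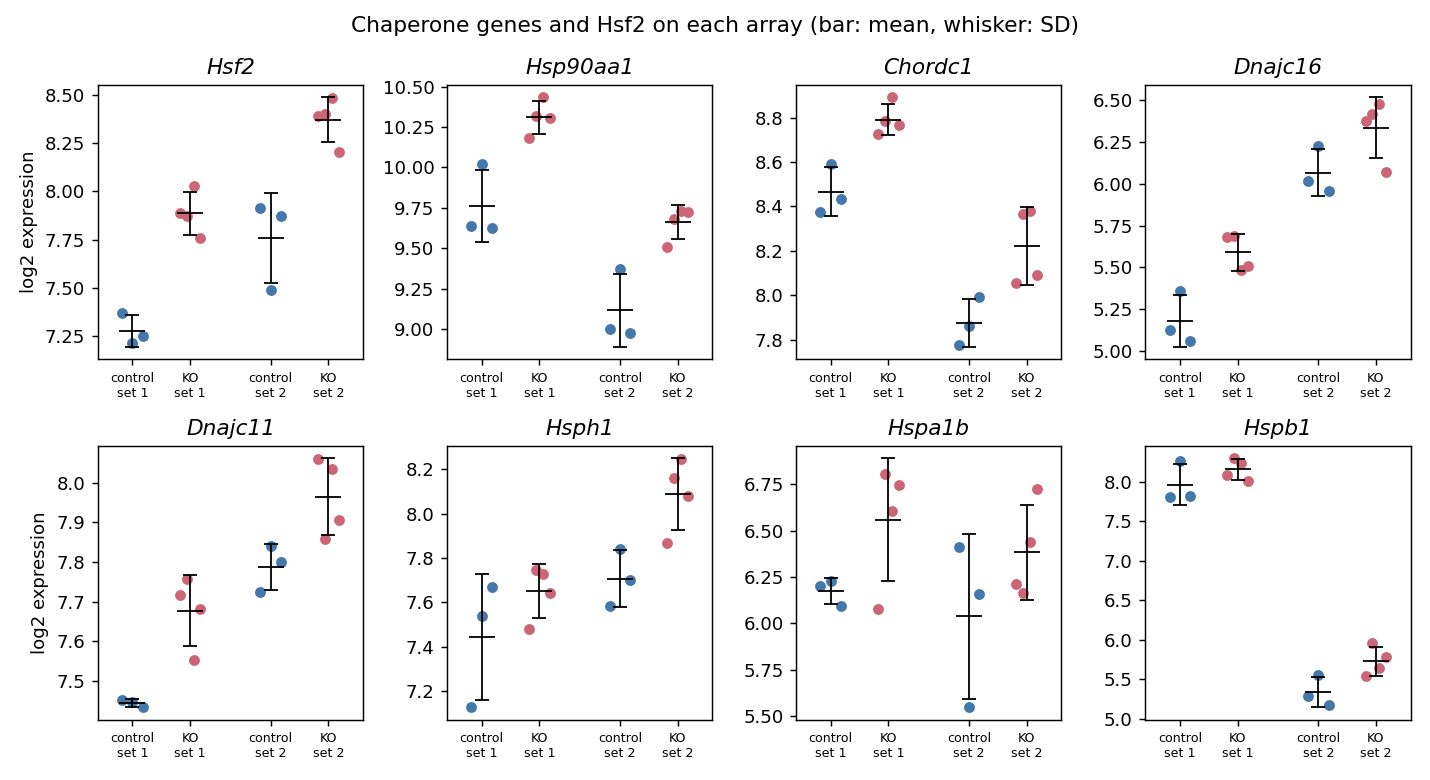
Log2 expression level (vertical axis) of 8 members in each of the 14 samples, with controls (blue) and knockouts (red, KO) apart by array set; bars are group means and whiskers the SD of the 3 or 4 samples. Knockout points of Hsf2, Hsp90aa1 and Chordc1 lie above all controls of the same set, while the levels of the sets differ.

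Across the HSP70 and HSP110 families 8 of 10 members were above 0 with a median difference of 0.11, and 0 passed the adjusted threshold. Hsph1, the stress-inducible HSP110 that exchanges the nucleotide of HSP70, was 7.13, 7.54 and 7.67 in set 1 controls and 7.48, 7.75, 7.73 and 7.64 in knockouts. In set 2 it was 7.58, 7.84 and 7.70 in controls and 7.87, 8.16, 8.25 and 8.08 in knockouts, so the groups overlapped in set 1 and were apart in set 2. Its difference was 0.29 ± 0.10 (95% interval 0.09 to 0.50; limma, adjusted p = 0.228). Hspa4, another HSP110 of the cytosol, differed by 0.15 ± 0.07 (limma, adjusted p = 0.467). Hspa4l, its relative known from testis, differed by 0.19 ± 0.15, with 0.38 in set 1 and -0.00 in set 2.

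Hspa1a and Hspa1b, the strictly stress-inducible HSP70 genes, are near-identical copies, so the signal of each may hold the other. Hspa1b was 6.20, 6.23 and 6.10 in set 1 controls and 6.08, 6.81, 6.60 and 6.75 in knockouts, and 6.41, 5.55 and 6.16 in set 2 controls and 6.21, 6.16, 6.44 and 6.72 in knockouts. The groups overlapped in both sets, and the difference of 0.36 ± 0.14 (limma, adjusted p = 0.347) was 0.26 without control 5, its lowest sample. Hspa1a differed by 0.08 ± 0.11 (limma, adjusted p = 0.885; 95% interval -0.15 to 0.32), so the inducible pair showed no called rise beside that of Hsp90aa1. The lowest difference of the family at a mean level of at least 5 was that of Hspa12b, a distant relative found in endothelium, at -0.10 ± 0.11. Hspa2 and Hspa1l, the germ cell forms, had mean levels under 5, as did 10 other members, and the background level of the array is not known here.

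The BAG exchange factors did not separate the groups. Bag3, the stress-inducible member that leads HSP70 clients to autophagy, was 7.59, 6.92 and 6.87 in set 1 controls and 7.33, 7.06, 7.03 and 6.92 in knockouts. The set 2 values were 7.45, 7.44 and 7.76 in controls and 7.57, 7.83, 7.80 and 7.80 in knockouts. The difference was 0.08 ± 0.12 (limma, adjusted p = 0.891) and 0.20 without control 1, its highest set 1 sample. Bag1, which couples HSP70 to the proteasome, differed by 0.00 ± 0.07 (limma, adjusted p = 0.995; 95% interval -0.15 to 0.16).

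Of the 8 small heat shock proteins 5 were above 0, with a median difference of 0.03. Hspb1, the actin-associated small heat shock protein, was 7.81, 8.27 and 7.83 in set 1 controls and 8.09, 8.30, 8.24 and 8.01 in knockouts. Levels in set 2 were 5.29, 5.55 and 5.18 in controls and 5.54, 5.96, 5.64 and 5.78 in knockouts, with overlap in each set. Its difference was 0.29 ± 0.10 (limma, adjusted p = 0.267). Hspb8, the partner of Bag3 in selective autophagy, differed by 0.02 ± 0.09 (limma, adjusted p = 0.976). Several small heat shock proteins are muscle proteins, and the mean of 8 muscle markers was 5.11 to 6.40 in set 1 controls and 5.21 to 6.40 in set 1 knockouts, and 4.87 to 5.23 against 4.86 to 5.44 in set 2.

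Of the mitochondrial chaperones 6 of 10 were above 0, the median difference was 0.04, and 0 were called. That median averages unlike sets, with 0.13 in set 1 and -0.02 in set 2. Hspd1, the HSP60 chaperonin of the matrix, was 11.70, 11.75 and 11.84 in set 1 controls and 11.71, 11.70, 11.75 and 11.76 in knockouts. In set 2 it was 11.71, 11.63 and 11.57 in controls and 11.76, 11.68, 11.80 and 11.54 in knockouts. Its groups overlapped in both sets and it differed by 0.01 ± 0.06, with a 95% interval of -0.12 to 0.15. Hspe1, its HSP10 lid, differed by 0.12 ± 0.06 (95% interval -0.02 to 0.25, limma adjusted p = 0.569), with 0.20 in set 1 and 0.03 in set 2. It shares with Hspd1 the bidirectional promoter printed above. Hspa9, the HSP70 of the matrix and of its import motor, differed by 0.07 ± 0.10 (95% interval -0.14 to 0.27), with 0.21 in set 1 and -0.08 in set 2. Dnaja3, its J protein partner, differed by -0.04 ± 0.08.

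The largest differences on the mitochondrial side were those of J proteins. Dnajc11, a J protein of the cristae-organising complex, was 7.45, 7.45 and 7.43 in set 1 controls and 7.72, 7.76, 7.55 and 7.68 in knockouts. For set 2 they were 7.72, 7.84 and 7.80 in controls and 8.06, 7.86, 8.03 and 7.90 in knockouts. All 8 knockout samples were above the controls of their set, with a difference of 0.20 ± 0.06 (95% interval 0.07 to 0.34; limma, adjusted p = 0.198). Dnajc28, a little-studied J protein, was 7.41, 7.52 and 7.23 in set 1 controls and 7.08, 6.74, 7.21 and 7.41 in knockouts, and 7.84, 7.92 and 7.65 in set 2 controls and 7.57, 7.80, 7.57 and 7.64 in knockouts. It was the lowest of the members at a difference of -0.22 ± 0.10 (limma, adjusted p = 0.453), and its groups overlapped in both sets.

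Of the members, Hsf2, Hsp90aa1, Chordc1 and Dnajc11 were the 4 with every knockout sample above every control of its set, which is 6.06% where 0.774% of all genes did so. At a mean level of at least 5 the counts were 4 of 54 members and 141 of 12240 genes. The reverse, every knockout sample below the controls, was seen in 0 members and in 0.538% of all genes.

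Among the other J proteins the difference was above 0 for 1 of 2 in class A, 8 of 10 in class B and 16 of 19 in class C, with medians of 0.01, 0.07 and 0.08, and 0 were called. Dnajc16, a J protein of the endoplasmic reticulum membrane, was 5.13, 5.36 and 5.06 in set 1 controls and 5.68, 5.69, 5.48 and 5.51 in knockouts. In set 2 it was 6.02, 6.23 and 5.96 in controls and 6.38, 6.42, 6.48 and 6.07 in knockouts. Knockout 8 alone lay within the range of its set's controls, and the difference was 0.34 ± 0.08 (95% interval 0.16 to 0.52; limma, adjusted p = 0.0919). It passed when only genes with a mean level of at least 5 were tested (0.0470) and without knockout 8 (0.0480).

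Dnajb1, the class B J protein that is the main heat-inducible partner of HSP70, was not called. It was 8.20, 8.57 and 8.65 in set 1 controls and 8.45, 8.49, 8.53 and 8.59 in knockouts, and 8.03, 7.88 and 7.51 in set 2 controls and 7.46, 8.07, 7.73 and 8.11 in knockouts. Its difference was 0.04 ± 0.11 (limma, adjusted p = 0.952) and the groups overlapped in both sets. Dnajb6, an anti-aggregation J protein named here for the element in its promoter, differed by 0.18 ± 0.07 (limma, adjusted p = 0.339), and Dnajb4, a close relative of Dnajb1, by 0.18 ± 0.08 (limma, adjusted p = 0.406). Dnaja2, a class A partner of HSP70 in the cytosol, differed by 0.19 ± 0.07 (limma, adjusted p = 0.293). Dnaja4, of the same class, differed by -0.16 ± 0.12 (-0.38 in set 1 and 0.05 in set 2), Dnajb12 by -0.11 ± 0.08 and Dnajc8, a J protein found with the splicing machinery, by -0.05 ± 0.07. These were the lowest of their classes at a mean level of at least 5. Set beside the promoter search, the 5 genes with the full element had differences of 0.33 (Chordc1), 0.29 (Hsph1), 0.18 (Dnajb6), 0.12 (Hspe1) and 0.01 (Hspd1), none of them called. Members whose windows held neither the full nor the shorter form ran from -0.22 (Dnajc28) to 0.61 (Hsf2), the whole range of the members. A link between the element and the difference was not tested.

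**Figure D4:**
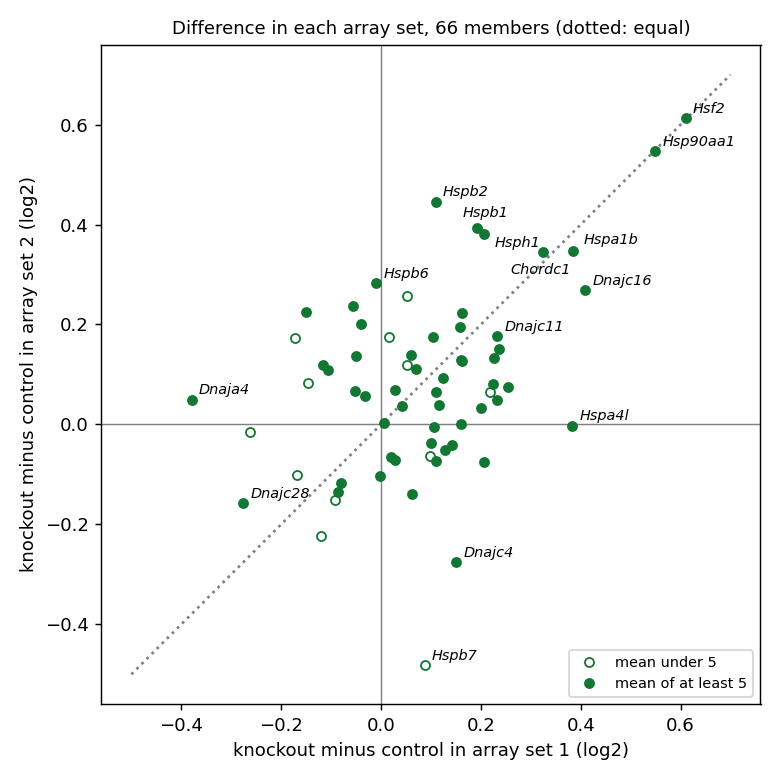
Knockout minus control difference of each of the 66 members in array set 1 (horizontal axis) and in array set 2 (vertical axis), both on the log2 scale. Hsf2 and Hsp90aa1 lie apart from the other members at about the same difference in each set, and 33 members lie in the quadrant above 0 in both.

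Neighbouring parts of the protein folding network, on lists chosen with earlier results of these data known, held 0 called genes in limma. Of all genes 0.431% were called higher and 0.272% lower, and lists this short can hold 0 at such shares. For the counts below, 5.53% of all genes were higher and 4.83% lower at an unadjusted p under 0.05 in limma. Of 22 measured other co-chaperones of HSP90 and HSP70, 15 were above 0 with a median of 0.06, and 2 were higher at an unadjusted p under 0.05: Ptges3, the p23 co-chaperone (0.30 ± 0.14), and Sugt1 (0.17 ± 0.06). The Ptges3 difference was 0.67 in set 1 and -0.07 in set 2 (limma interaction, unadjusted p = 0.0028, adjusted p = 0.998). Its pooled 0.30 averages these unlike values, and the difference between the sets was not called. Of 13 subunits of the cytosolic chaperonin TRiC and of prefoldin, which hands actin and tubulin to it, 8 were above 0 with a median of 0.11, and 3 were higher at that unadjusted threshold. Those were Cct3 at 0.34 ± 0.08 (limma, adjusted p = 0.0916), Pfdn4 at 0.34 ± 0.08 (limma, adjusted p = 0.0924) and Cct5 at 0.19 ± 0.07. These named genes were chosen after their values were seen. Of 10 other heat shock factor targets and regulators 3 were above 0 with a median of -0.02, 1 being higher and 1 lower at an unadjusted p under 0.05. Of 14 other mitochondrial proteostasis genes 4 were above 0 with a median of -0.04, and 2 were lower at that threshold, Htra2 (-0.25 ± 0.09) and Hscb (-0.31 ± 0.10). Hscb averaged 5.95 in set 1 controls and 5.59 in set 1 knockouts, but 2.84 and 2.57 in set 2. Those set 2 levels were near the lowest deposited value, 2.13. The cold-inducible RNA-binding genes Cirbp and Rbm3, which move against heat shock genes when temperature changes, differed by -0.14 ± 0.09 and -0.00 ± 0.08. The 7 endoplasmic reticulum chaperones had 6 above 0 with a median of 0.06, with Hspa5 (BiP), the main HSP70 of that compartment, at 0.05 ± 0.08.

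The array sets differed more for some chaperones than the genotypes did for any. In 12 of the 66 members (18.2%) the difference of set 2 minus set 1 was over 1 in size, and all 12 were lower in set 2. Of all genes 2148 (11.0%) differed by that much, 748 higher and 1400 lower in set 2. Dim genes lower that share, and at a mean level of at least 5 it was 17.2% of genes, against 22.2% of members. The members were Hspb1 (-2.51), Bag1 (-2.27), Dnajc15 (-2.06), Dnajc12 (-1.75), Hspb11 (-1.49), Dnajc2 (-1.43), Dnajc25 (-1.42), Ahsa1 (-1.37), Dnajc21 (-1.30), Hspa9 (-1.29), Dnajc8 (-1.27) and Dnajc19 (-1.02). In Bag1 the controls were 10.46, 10.43 and 10.52 in set 1 and 8.11, 8.29 and 8.20 in set 2, and the knockouts 10.57, 10.49, 10.35 and 10.50 against 8.12, 8.27, 8.42 and 8.01, so the sets stood apart and the genotypes did not. The median of the members' set differences was -0.05, against 0.11 for all genes. The labels give no processing batch, and what separates the sets was not tested.

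**Figure D5:**
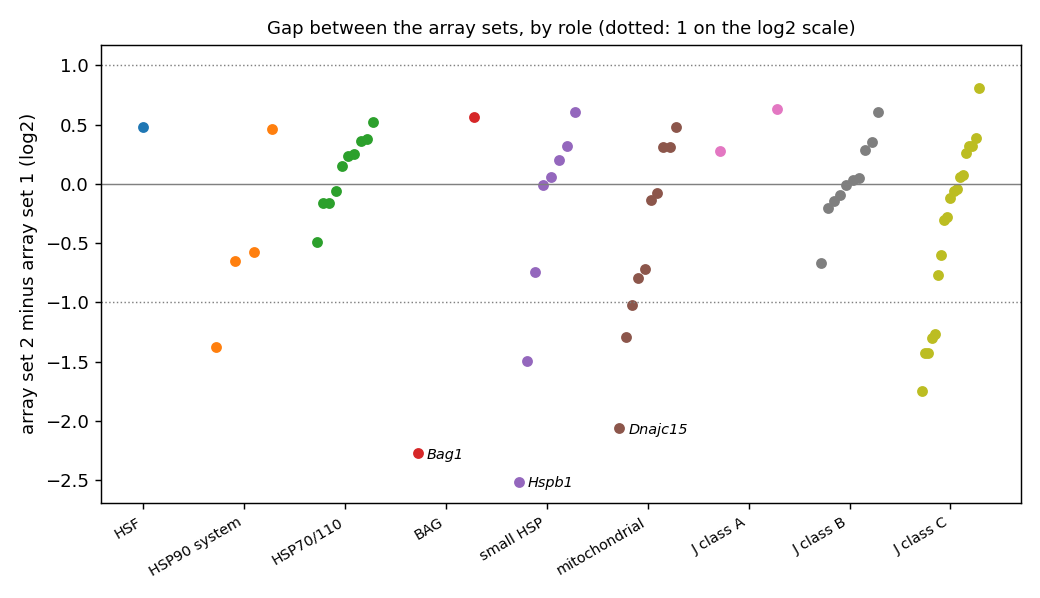
Difference of array set 2 minus array set 1 on the log2 scale (vertical axis) for each of the 66 members, a point per gene, grouped by role on the horizontal axis, with dotted lines at 1 in either direction. The 12 members past a line are all below the lower one, with Hspb1, Bag1 and Dnajc15 lowest.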

How the data were processed

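Liver RNA was labelled with the Affymetrix WT PLUS kit, per the labels' protocols, and hybridised to 1 array per sample. The authors deposited log2 values, 2.13 to 13.8, with RMA and Partek named without versions in the submitters' processing notes; the scale was read from the values. They were used without further normalization. Array medians were 5.73 to 5.87, and the number of arrays, not a read depth, limits the precision. Of 22206 rows, 19572 had 1 gene symbol through the platform and NCBI gene tables, and 2634 were not named here. For 55 genes with several rows the row with the highest mean was kept, giving 19505 genes.

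Differences were fitted in R 4.3.3 by limma 3.58.1 (lmFit, eBayes), with terms for group and array set, 11 residual degrees of freedom, and Benjamini-Hochberg adjustment over all genes at 0.05; it was tested on simulated data. The sets came from average-linkage clustering of the array correlations. The members, the lists, the set term and the rule for named genes were chosen with earlier results of these data known. Named are a fixed group of inducible and mitochondrial members, every member past the threshold, and the largest rise and fall of each role at a mean of at least 5; other names are said to be chosen after their values were seen. The 12 members at an unadjusted p under 0.05 and those with a set difference over 1 were named after their values were seen. Promoter windows come from a RefSeq table (GRCm38.p6), matched by symbol for 55 members. The descriptions of knockouts 7 and 8 repeat the numbers of knockouts 5 and 6; each was counted as a sample. Alternatives changed the set term, normalization, level filter, moderation, array weights, replicate block, samples and threshold.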

Additional observations from a re-analysis of the deposited data

Results flagged for a closer look

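In 4 of 120 groups of samples tested (3.33%), 1 sample stood apart from the rest of its group by Dixon's 95% criterion. Chance alone meets it in about 1 of 20 independent groups of 1 population. The groups here overlap, and those of all controls or all knockouts mix the array sets, so the 2 shares cannot be compared. Hspa1b was at 5.55 in control 5, with the other controls at 6.10 to 6.41. Bag3 was at 7.57 in knockout 5, with the other set 2 knockouts at 7.80 to 7.83. Hspb8 was at 9.19 in knockout 5, with the other knockouts at 9.51 to 9.70, and Hspd1 was at 11.54 in knockout 8, with the others at 11.68 to 11.80. None of these genes was called with or without the sample.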

How the results depend on the processing

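The count of all genes called, 137, was 0 without the set term, 2 in set 1 alone, 2 in set 2 alone, 222 at a mean level of at least 5, 325 with a trended robust prior, 26 without controls 1 and 4, 12 without knockouts 7 and 8, 67 with knockouts 5 and 7 and 6 and 8 averaged, 18 at adjusted p under 0.01 and 242 at 0.1. Leaving out single samples gave 44 to 132, and over 1.5 times fewer than 137 without control 1, 2, 4 or 5 or knockout 1, 2, 3, 4, 5, 7 or 8. The 2 called members became 0 without the set term and 0 in set 1 or set 2 alone (limma; at an unadjusted p under 0.05, 4, 13 and 5 higher and 0, 1 and 1 lower). Without the set term 1.74% of all genes were higher and 1.61% lower at that threshold. Such shares were not counted for each set alone or for the fits with a replicate block. The 2 called members became 4 at a mean of at least 5, 1 without controls 1 and 4, 1 without knockouts 7 and 8, 1 at 0.01 and 4 at 0.1. Single samples left out gave 2 to 3. Hsp90aa1 was no longer called at 0.55 without the set term, 0.55 in set 1, 0.55 in set 2, 0.49 without controls 1 and 4 and 0.52 without knockouts 7 and 8. Prkaa1 was no longer called at -0.67, -0.48, -0.85, -0.64 and -0.62 in the same order (-0.73 to -0.58 over single samples left out), and Prkaa2 at -1.13 without the set term. Samples with the same replicate number deviated together at correlations of 0.02 to 0.09, so the numbers were not taken to pair them. With the replicate block and no set term, 1 gene and 0 members were called (limma; 6 members higher and 1 lower at an unadjusted p under 0.05), with Hsp90aa1 at 0.63 and Prkaa1 at -0.72. With the replicate block and the set term, 2 genes and 0 members were called (9 higher and 0 lower), with Hsp90aa1 at 0.50 and Prkaa1 at -0.55. The fits by set, with the block or without samples rest on fewer samples; beyond that the cause was not tested. The shorter promoter element gave 16 genes in place of 5. Over the alternatives run, the median difference of the members stayed above 0, at 0.05 to 0.13, and no called difference changed sign. Of 30 named genes, 11 that were never called changed sign under at least 1 alternative: Bag1, Bag3, Dnaja3, Dnaja4 (-0.38 to 0.05), Dnajb1, Dnajc8, Hspa4l, Hspa9 (-0.08 to 0.29), Hspb8, Hspd1 and Stip1. The array's background level is not known here, which limits the 12 members with a mean under 5.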
